A study of Mus musculus with 12 samples.

Results

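The 40 genes described here encode the transporters and enzymes that carry glucose and fructose through glycolysis, gluconeogenesis, glycogen and the pentose phosphate pathway in mouse liver. They were chosen by gene symbol from the 26301 Entrez genes of the count table, and all 40 were found and passed the filter on low counts. Messenger RNA was measured by SOLiD sequencing in 12 libraries, 4 each of non-tumor livers from wild-type mice (control), liver tumors with E2f7 and E2f8 deleted (DKO), and liver tumors with Rb1, E2f7 and E2f8 deleted (TKO). E2f7 and E2f8 encode atypical E2F repressors of cell cycle genes, and Rb1 encodes the retinoblastoma protein, which restrains the activating E2Fs. The study asked whether E2f7 and E2f8 partly make up for a missing Rb1 in the liver, and the glucose genes are compared here over the same 3 groups. Both tumor genotypes carried floxed alleles recombined by Albumin-Cre, a transgene active in hepatocytes, so that other cells of the tumor kept the genes. The mice were bred towards the FVB strain and were collected as ageing animals at a humane end point; the labels give their age only as adult, and the control mice were matched in age. Feeding before death, to which many of these genes respond, was not stated in the sources used here.

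Glycolysis splits glucose to pyruvate and is used by most cells, whereas the liver also runs the route backwards: gluconeogenesis makes glucose from lactate and amino acids through enzymes that bypass the irreversible steps, and releases it to the blood. Hepatocytes therefore express their own forms of several enzymes, among them Slc2a2 for transport and Pklr for pyruvate kinase, and the forms of muscle, brain and growing cells, such as Slc2a1, Hk2, Pkm and Aldoa, are low. Within the liver lobule, gluconeogenic genes are highest around the portal vein, and glutamine synthetase (Glul) marks the hepatocytes around the central vein. The pentose phosphate pathway branches off at glucose 6-phosphate and supplies NADPH and ribose.

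The only member that passed the main test in DKO tumors, close to its threshold, belonged to a pair of genes for the same reaction. Phosphoenolpyruvate carboxykinase makes phosphoenolpyruvate from oxaloacetate, and Pck1 encodes the cytosolic enzyme, the main form in mouse liver, while Pck2 encodes the mitochondrial enzyme. Pck2 rose 2.7-fold in mean level in DKO tumors against control livers (edgeR's quasi-likelihood test, adjusted p = 0.0486). It was the only 1 of 40 members called, with 2.42% of all genes tested called. The call was kept in 4 of 12 fits that each left out 1 library. The mean level of Pck1 was 0.371 times that of control livers in DKO and 0.318 times in TKO tumors. Neither difference passed the test. DKO 3 lay among the control livers, and without it the log2 fold change of Pck1 in DKO tumors went from -1.43 to -2.37. Without DKO 2, DKO 4 and TKO 4, the tumors with the highest Glul, it was -0.59. These tumors also held the lowest Pck1 of all libraries, so leaving them out had to make the drop smaller. The 250 bases before the RefSeq start of each gene are shown because these 2 genes carry the contrast. They are RefSeq promoters of the GRCm38.p6 tables found by exact match in mm9, at chr2:172978324-172978573 (plus strand) for Pck1 and chr14:56158853-56159102 (plus strand) for Pck2, and capitals mark the matches among 6 searched motifs. The end of the Pck1 stretch lies inside the gene as GENCODE places it.
Pck1: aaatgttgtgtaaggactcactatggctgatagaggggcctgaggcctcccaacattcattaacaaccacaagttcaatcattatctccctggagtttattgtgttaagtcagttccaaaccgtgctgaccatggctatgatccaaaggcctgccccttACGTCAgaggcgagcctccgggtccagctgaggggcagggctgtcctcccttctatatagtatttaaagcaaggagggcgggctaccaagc
Pck2: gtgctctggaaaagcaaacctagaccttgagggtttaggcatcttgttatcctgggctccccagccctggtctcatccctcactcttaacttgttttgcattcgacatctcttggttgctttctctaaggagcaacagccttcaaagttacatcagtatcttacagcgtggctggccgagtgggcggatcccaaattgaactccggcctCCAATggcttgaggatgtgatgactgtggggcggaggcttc
The Pck1 stretch held ACGTCA, the core of a cyclic AMP response element, from -91 to -86 relative to the RefSeq start. The Pck2 stretch held CCAAT, the CCAAT box, from -41 to -37.

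The same 6 motifs were searched on both strands of 27025 promoters of 250 bases, which included 39 of the 40 members. ACGTCA stood in 5 of the 39 (Hk2, Ldha, Pck1, Pfkfb3 and Slc37a4), or 12.8%, against 6.56% of all promoters. The E2F motif TTTNNCGC was found in 1 member, G6pdx, or 2.56%, against 4.39% of all promoters. TTGCATCA, the core of the amino acid response element, and TATAAA, the TATA box, were each found in G6pc and in no other member, with shares over all promoters of 0.818% and 13%. CACGTG, the E-box, stood in 5 members (Khk, Ldha, Pcx, Pfkfb2 and Pfkm) and in 6.05% of all promoters. CCAAT was found in 17 members, or 43.6%, against 34.5% of all promoters. A match of letters is a description of the sequence and not a binding site.

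Total counts per library ranged from 9165812 to 16424973, and the 40 members together took 0.411% to 0.743% of them. Levels are given as CPM, the number of a gene's counts in every 1000000 counts of the library, scaled by edgeR's TMM factors. As checks of the labels, Rb1 stood at 6.52 to 11.3 CPM in control and DKO libraries and at 3.21 to 5.47 CPM in TKO libraries, whereas E2f7 overlapped between the groups, at 0.542 to 1.11 CPM in control, 0.236 to 1.84 in DKO and 0.690 to 0.895 in TKO libraries, and E2f8 stood at 4.52 to 8.97, 7.59 to 45.6 and 12.3 to 52.2 CPM. Counts over a whole gene do not show which exons were lost, so they leave the deletion of E2f7 and E2f8 unchecked. The 10 hepatocyte markers, albumin among them, were all detected, with a summed level of 98636 to 152653 CPM in control, 132670 to 343235 in DKO and 53762 to 264127 in TKO libraries. Most of this sum was albumin, with 286273 of 343235 CPM in DKO 1. Of the 10 markers, 6 were higher and 4 lower in DKO tumors than in control livers, and 4 were higher and 6 lower in TKO tumors. All tests below come from edgeR's quasi-likelihood test on 13882 genes, with p values adjusted over all of them by Benjamini-Hochberg, and a gene is called when its adjusted p is under 0.05. The comparisons of DKO and of TKO tumors with control share the same 4 control livers, so their values are set side by side and not counted as separate support.

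Few members passed the test in any comparison. In DKO tumors 1 of 40 members was called, as were 2.42% of all genes tested. In TKO tumors 0 of 40 were called, with 0.0864% of all genes, and with the tumors of both genotypes against control 1 of 40 was called (Pck2), with 2.48% of all genes. Between TKO and DKO tumors 0 members were called, as were 0% of all genes. At an unadjusted p under 0.05 the members numbered 9 in DKO (6 higher, 3 lower), 5 in TKO (3 higher, 2 lower), 8 in both genotypes (4 higher, 4 lower) and 2 between the tumor genotypes (both lower in TKO). The shares of all genes at that level were 24%, 16.3%, 23% and 9%, and those of the members, at 22.5%, 12.5%, 20% and 5%, were close to or below them. Without overlap between the groups stood 5 members in DKO, where 16.2% of all genes did, 3 in TKO (7.67%), 1 in both genotypes (3.66%) and 2 between the tumor genotypes (4.87%). By DESeq2, 2 members were called in DKO and 2 in TKO tumors (Pck2 and Slc37a4 in each), 3 in both genotypes together (Aldoa in addition), and 0 between the tumor genotypes. DESeq2 called 9.95%, 3.32%, 9.49% and 0.398% of all genes in those comparisons. The median log2 fold change of the 40 members was 0.08 in DKO and 0.02 in TKO tumors, and that of all genes tested was 0.02 in each.

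**Figure D1:**
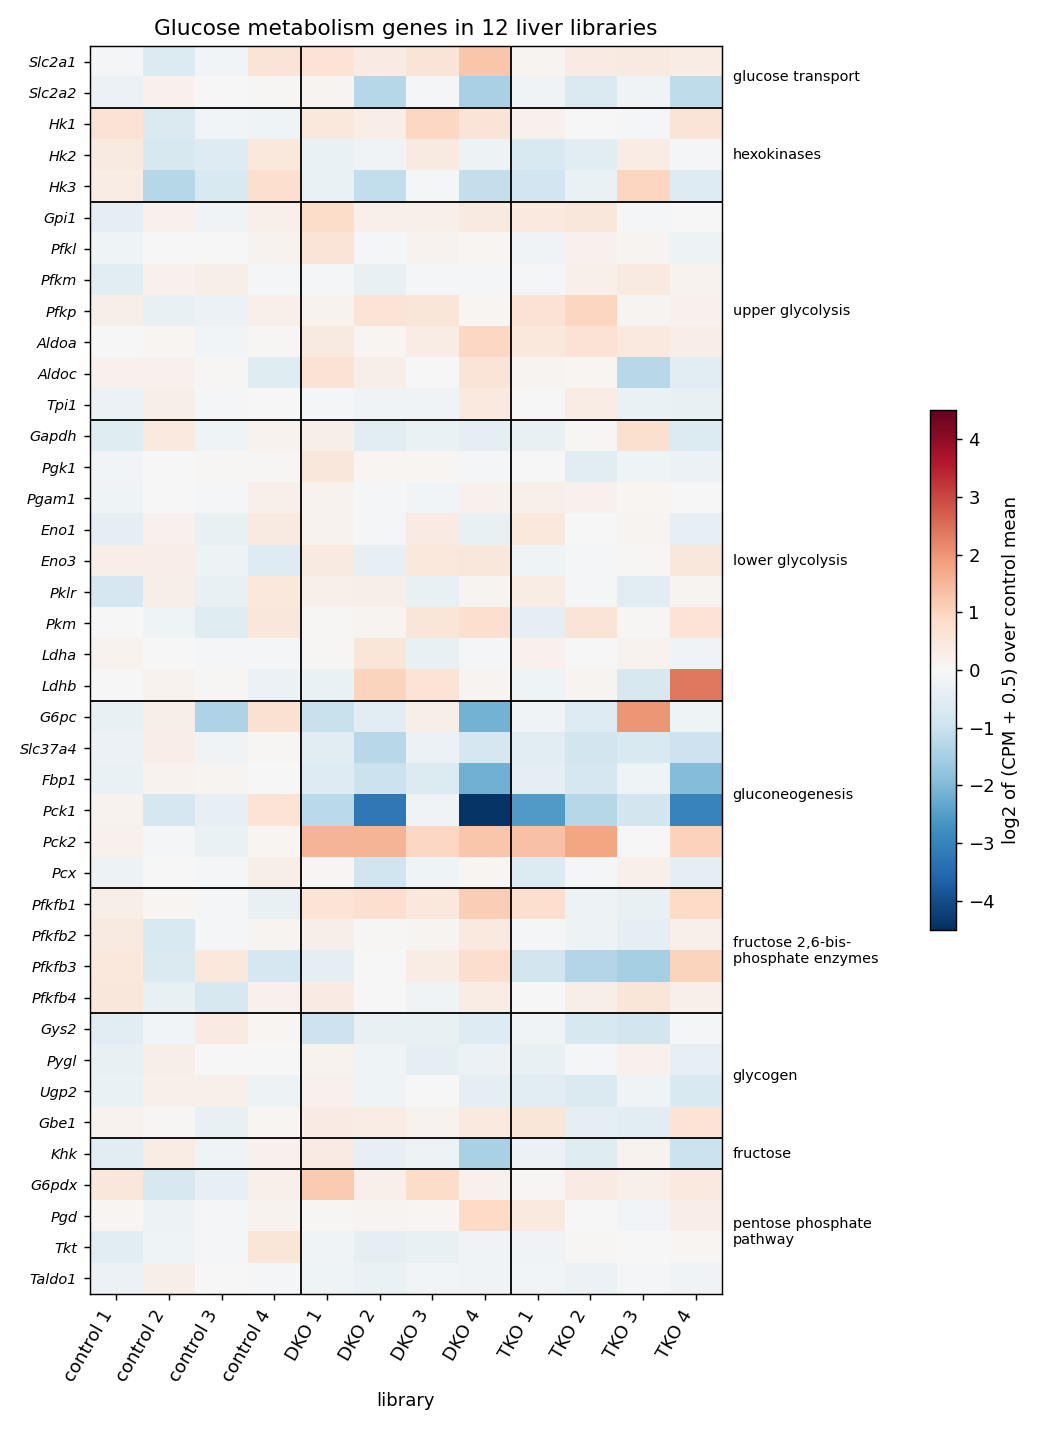
Level of each of the 40 genes (rows, by role) in each of the 12 libraries (columns), as the log2 ratio of CPM plus 0.5 to the control mean; red is higher, blue is lower, and the vertical lines separate control, DKO and TKO. Pck1 lies below the control mean in all 8 tumors to a varying degree, Pck2 is red in 7 of the 8 tumors, and most genes of glycolysis stay near white.

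Per kilobase of exon, the control livers were ranked by gluconeogenesis and transport. The mean level was 427 CPM per kb for Fbp1 (fructose 1,6-bisphosphatase), 388 for Pck1, 230 for Slc2a2 (the GLUT2 glucose transporter of hepatocytes), 175 for Khk (ketohexokinase, which starts fructose breakdown) and 152 for Ldha (lactate dehydrogenase A). At the other end stood Pfkp, the platelet form of phosphofructokinase, with 0.412, Pfkfb4 with 0.290 and the hexokinase Hk2 with 0.259 CPM per kb. Pck2 ranked 34 of 40, with 1.23 CPM per kb. Of the 39 pairs of neighbours in this order, 38 had overlapping values, so that only the coarse order is resolved. Ldhb and Pck2 were the pair that did not overlap.

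Among the 6 genes of gluconeogenesis, 1 was called in DKO tumors (Pck2, higher) and 0 were called in TKO tumors, and the median log2 fold change was -0.62 in DKO and -0.44 in TKO. Pck2 (chr14:56159103-56168854, plus strand, mm9) stood at 4.82, 4.06, 3.32 and 4.54 CPM in control livers, at 13.0, 13.1, 8.40 and 10.7 in DKO tumors and at 11.2, 15.7, 4.22 and 9.03 in TKO tumors. All 4 DKO tumors lay above all control livers, and in TKO tumors replicate 3 lay within the control range. Its log2 fold change was 1.43 (SE 0.33) in DKO tumors (edgeR's quasi-likelihood test, adjusted p = 0.0486) and 1.26 (SE 0.33) in TKO tumors (adjusted p = 0.132), with 1.35 (SE 0.30) for both genotypes (adjusted p = 0.0444). The call was close to the threshold: it was lost in DKO tumors on leaving out control 1, 2, 3 or 4, DKO 1, 2 or 4, or TKO 1, with adjusted p values of 0.0577 to 0.144, and kept on leaving out DKO 3 or TKO 2, 3 or 4. The call for both genotypes was lost without any 1 of those 8 libraries, and also without TKO 2, with adjusted p values of 0.0558 to 0.158. In TKO tumors the gene was called once TKO 3 was left out (log2 fold change 1.51, adjusted p = 0.0180). DESeq2 called Pck2 in DKO (adjusted p = 0.00226) and in TKO tumors (adjusted p = 0.0200).

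Pck1 (chr2:172978549-172984774, plus strand) was more abundant and varied widely. Control livers held 1475, 795, 1030 and 2024 CPM, DKO tumors 567, 142, 1203 and 62.8, and TKO tumors 228, 542, 759 and 165. All 4 TKO tumors lay below all control livers, whereas DKO 3 stood among them and the other 3 DKO tumors lay below. The log2 fold change was -1.43 (SE 0.77) in DKO (adjusted p = 0.278) and -1.65 (SE 0.78) in TKO tumors (adjusted p = 0.318), neither past the threshold. Without DKO 3 the value in DKO tumors was -2.37 (adjusted p = 0.0959). In each library the log2 ratio of Pck2 to Pck1 counts, with 2 added to both, gave -8.75 to -7.53 in control, -7.14 to -2.54 in DKO and -7.44 to -4.17 in TKO libraries. Every tumor thus lay above every control liver, but TKO 3 (-7.44) only just above control 2 (-7.53), on 55 and 33 Pck2 counts.

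**Figure D2:**
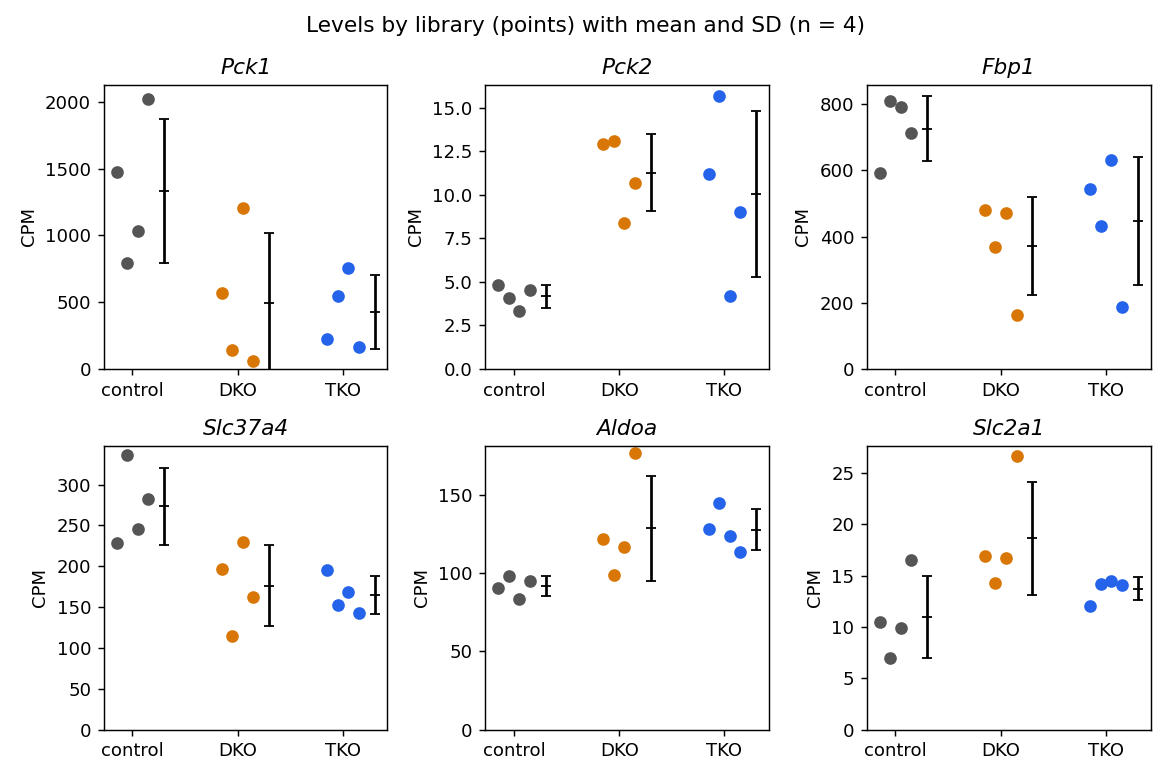
CPM of 6 members in each library (points, in order of replicate) with the mean and SD of 4 libraries beside them; the lower end of the Pck1 bar of DKO tumors is cut at 0. Pck2 and Aldoa are higher in the tumors but for TKO 3 in Pck2, and Pck1, Fbp1 and Slc37a4 are lower in most tumors.

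The later steps of glucose production were lower in most tumors without passing the test. Fbp1 (chr13:62966113-62989642, minus strand) stood at 592, 808, 792 and 712 CPM in control livers, 480, 367, 472 and 162 in DKO tumors and 544, 430, 632 and 186 in TKO tumors. The DKO tumors lay wholly below the control livers, and TKO 3 overlapped them, with log2 fold changes of -0.97 (SE 0.38, adjusted p = 0.147) and -0.70 (SE 0.38, adjusted p = 0.392). Slc37a4 (chr9:44205182-44211046, plus strand), which carries glucose 6-phosphate into the endoplasmic reticulum, stood at 229, 336, 246 and 282 CPM in control livers, 197, 114, 230 and 162 in DKO tumors and 196, 153, 169 and 142 in TKO tumors. Here the TKO tumors lay wholly below the control livers, and DKO 3 alone of the DKO tumors overlapped them. Its log2 fold change was -0.64 (SE 0.22) in DKO (edgeR's adjusted p = 0.104; DESeq2's 0.0490) and -0.73 (SE 0.22) in TKO tumors (edgeR's 0.151; DESeq2's 0.0401).

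G6pc, the catalytic subunit of glucose 6-phosphatase, gave no such pattern. It stood at 97.2, 149, 46.8 and 199 CPM in control livers, 61.2, 88.5, 148 and 28.0 in DKO tumors and 111, 81.7, 486 and 108 in TKO tumors. TKO 3 held the highest level by far, and without it the log2 fold change of TKO tumors turned from 0.68 (adjusted p = 0.645) to -0.30. Pcx, pyruvate carboxylase, which makes the oxaloacetate that Pck1 and Pck2 use, differed by a log2 fold change of -0.18 in each genotype (SE 0.25), with means of 390 ± 56.5, 344 ± 96.7 and 345 ± 89.7 CPM (SD, n = 4) in control, DKO and TKO.

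In glucose transport, the hepatic and the general transporter gave log2 fold changes of opposite sign, and neither was called. Slc2a1, which encodes GLUT1, stood at 10.5, 7.01, 9.89 and 16.5 CPM in control livers, 16.9, 14.2, 16.7 and 26.6 in DKO tumors and 12.1, 14.1, 14.5 and 14.1 in TKO tumors. The highest control liver overlapped both tumor groups. The log2 fold change was 0.76 (SE 0.25, adjusted p = 0.0961) in DKO and 0.31 (SE 0.25, adjusted p = 0.567) in TKO tumors, and limma-voom with quality weights called it in DKO tumors (adjusted p = 0.0352). Slc2a2 stood at 533, 724, 626 and 653 CPM in control livers, 693, 262, 596 and 228 in DKO tumors and 569, 401, 561 and 290 in TKO tumors. DKO 2, DKO 4 and TKO 4 were the 3 lowest libraries, and DKO 1, DKO 3, TKO 1 and TKO 3 lay within the control range. The log2 fold change was -0.51 (SE 0.35, adjusted p = 0.404) in DKO and -0.48 (SE 0.35, adjusted p = 0.537) in TKO tumors.

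Hexokinases phosphorylate glucose on entry, and the 3 members of this family were scarce, at 0.738 to 8.40 CPM over all libraries. None was called. Hk1 averaged 4.15 ± 1.83, 6.49 ± 1.36 and 4.78 ± 1.17 CPM (SD, n = 4) in control, DKO and TKO, with a log2 fold change of 0.64 (SE 0.30, adjusted p = 0.211) in DKO. Hk3, the form known from blood cells, had a log2 fold change of -0.67 (SE 0.56, adjusted p = 0.503) in DKO and -0.02 (SE 0.56) in TKO tumors. The 9 macrophage markers summed to 254 to 660 CPM in control, 140 to 548 in DKO and 229 to 708 in TKO libraries, with none at 0 in every library, and their part in the level of Hk3 was not tested.

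Upper glycolysis runs from glucose 6-phosphate to the triose phosphates. Its 7 members had a median log2 fold change of 0.41 in DKO and 0.19 in TKO tumors, and 0 of 7 were called in either. Aldoa (chr7:133938748-133944265, minus strand), the aldolase of muscle and most other tissues, stood at 90.3, 98.5, 83.6 and 95.3 CPM in control livers, 122, 98.7, 117 and 177 in DKO tumors and 128, 145, 124 and 113 in TKO tumors. It was the only member whose 8 tumors all lay above all 4 control livers, with 98.7 CPM in DKO 2 against 98.5 in the highest control liver at the closest point. Scaled by DESeq2's size factors, 7 of the 8 tumors lay above all control livers. The log2 fold change was 0.49 (SE 0.17, adjusted p = 0.115) in DKO and 0.47 (SE 0.17, adjusted p = 0.207) in TKO tumors.

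The other 6 genes of upper glycolysis overlapped between tumors and control livers. Gpi1, which turns glucose 6-phosphate into fructose 6-phosphate, averaged 81.9 ± 16.5, 112 ± 23.6 and 97.5 ± 18.6 CPM (SD, n = 4), with a log2 fold change of 0.46 (SE 0.20, adjusted p = 0.182) in DKO. Phosphofructokinase, the committed step, is a complex of liver (Pfkl), muscle (Pfkm) and platelet (Pfkp) subunits. Pfkl differed by a log2 fold change of 0.21 in DKO and -0.01 in TKO tumors, and Pfkp by 0.41 (SE 0.26) and 0.58 (SE 0.26, adjusted p = 0.300). Pfkm stood at 12.6, 10.5, 12.5 and 12.6 CPM in DKO and at 12.7, 15.8, 17.8 and 15.1 CPM in TKO tumors. All TKO tumors thus lay above all DKO tumors, but only just, with 12.66 CPM in TKO 1 against 12.65 in DKO 1. Other scalings were not checked for Pfkm. Its log2 fold change of TKO against DKO was 0.35 (SE 0.18, adjusted p = 0.585). The log2 ratio of Pfkm and Pfkp to Pfkl was -0.75 to -0.58 in TKO tumors, -1.58 to -0.96 in DKO tumors and -1.13 to -0.83 in control livers, so that TKO tumors stood above both other groups. Aldoc, a form known from brain, was at 37.0, 28.5, 24.01 and 35.5 CPM in DKO and at 25.3, 24.8, 9.59 and 16.6 in TKO tumors, with a log2 fold change of -0.71 (SE 0.28, adjusted p = 0.516) between them. Tpi1, which interconverts the triose phosphates, had log2 fold changes of 0.03 and -0.04 against control.

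**Figure D3:**
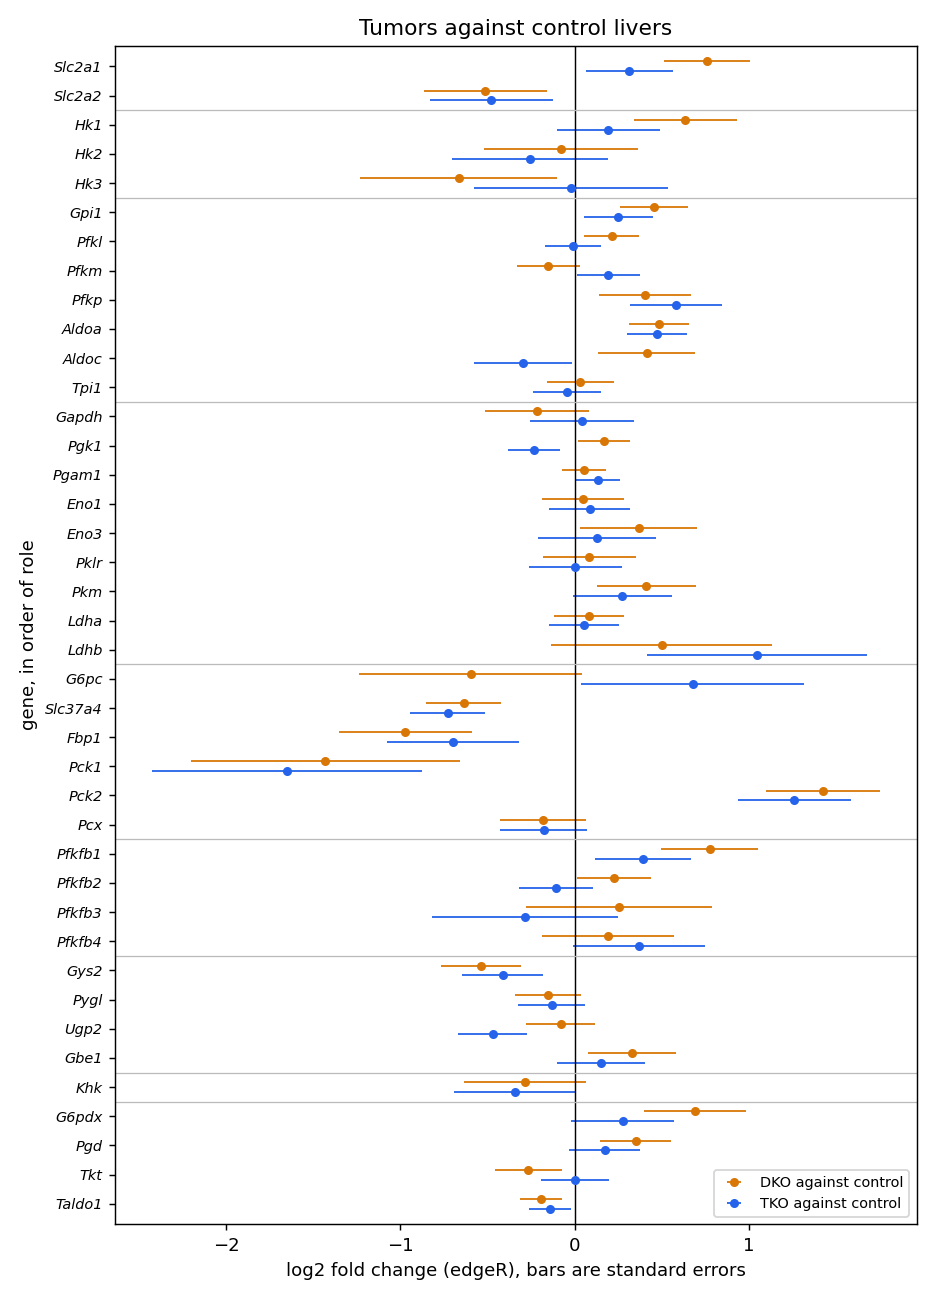
Log2 fold change of each member in DKO (orange) and TKO tumors (blue) against control livers, with the standard error as a bar, grouped by role with grey lines. Pck2 lies farthest to the right in both, Pck1 farthest to the left with the longest bars, and among the genes of lower glycolysis Ldhb lies farthest from 0 in both.

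Lower glycolysis runs from glyceraldehyde 3-phosphate to lactate. Its 9 members had a median log2 fold change of 0.09 in each genotype, and 0 of 9 were called or free of overlap with control livers. Ldha averaged 454 ± 40.2, 480 ± 133 and 472 ± 51.8 CPM (SD, n = 4) in control, DKO and TKO, and the liver pyruvate kinase Pklr averaged 196 ± 71.7, 208 ± 36.9 and 196 ± 44.3. The other pyruvate kinase gene, Pkm, which growing cells use as its M2 form, averaged 15.98 ± 5.21, 21.3 ± 5.24 and 19.3 ± 6.38 CPM, and counts per gene do not tell its M1 and M2 forms apart. Ldhb, the heart form of lactate dehydrogenase, stood at 2.65, 3.48, 1.69 and 18.2 CPM in TKO tumors against 2.56 to 3.57 in control livers, so that its log2 fold change of 1.05 (SE 0.63, adjusted p = 0.441) turned to -0.27 without TKO 4. In DKO tumors Ldhb, Pkm and the muscle enolase Eno3 had the highest log2 fold changes of the 9, with 0.50, 0.41 and 0.37. Pgk1 averaged 87.9 ± 5.36, 98.9 ± 18.6 and 74.9 ± 10.1 CPM and had an unadjusted p under 0.05 between TKO and DKO tumors, with a log2 fold change of -0.40 (SE 0.15, adjusted p = 0.499).

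Several of these genes have processed pseudogenes with near-identical sequence, and the reads were 40 bases long. Of the 40-base windows in the exons, 92.5% for Pgam1, 70.7% for Pgk1, 51.6% for Gapdh and 51.2% for Pkm occurred more than once in the mm9 genome, and 33.1% for Ldhb, 24.5% for Ldha, 23.5% for Eno1 and 22.4% for Tpi1. How reads from such windows were counted was not stated in the sources used here, so the levels of these 8 genes are uncertain. Gapdh, commonly among the most abundant transcripts, stood at only 18.7 to 47.2 CPM. Of the other members described at length, Pck2, Fbp1, Slc37a4, G6pc, Slc2a1 and Pfkfb1 had 0 such windows and Pck1 had 0.834%, while G6pdx had 9.25% and Aldoa 12.7%.

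Fructose 2,6-bisphosphate is the signal that favours glycolysis over gluconeogenesis, and the 4 Pfkfb enzymes make and degrade it. Pfkfb1, the liver form, stood at 24.3, 21.4, 19.3 and 15.96 CPM in control livers, 31.3, 34.9, 28.3 and 44.3 in DKO tumors and 34.9, 17.4, 15.9 and 38.1 in TKO tumors. All DKO tumors lay above all control livers. Of the TKO tumors, TKO 1 and TKO 4 lay above them, TKO 2 lay within their range and TKO 3 only just below it. The log2 fold change was 0.78 (SE 0.28, adjusted p = 0.118) in DKO and 0.39 (SE 0.28, adjusted p = 0.516) in TKO tumors, and the fit on control and DKO libraries alone called it in DKO (adjusted p = 0.0398). Pfkfb3, the form induced in growing or oxygen-poor cells, was at 47.3 CPM in TKO 4 and at 7.98 to 13.0 in the other TKO tumors, while control livers ranged from 13.8 to 32.9. Pfkfb2 and Pfkfb4 overlapped between all groups, at 16.1 to 36.0 and 0.542 to 1.99 CPM.

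Glycogen is the glucose store of the hepatocyte, and none of its 4 genes was called. Gys2, liver glycogen synthase, averaged 229 ± 55.3, 157 ± 29.4 and 172 ± 44.6 CPM (SD, n = 4) in control, DKO and TKO, with log2 fold changes of -0.54 (SE 0.23, adjusted p = 0.181) and -0.41 (SE 0.23, adjusted p = 0.406). Gbe1, the branching enzyme, was at 141 to 201 CPM in control livers and at 203 to 245 in DKO tumors. These groups narrowly failed to overlap under TMM scaling, the only scaling checked for this gene. The log2 fold change was only 0.33 (SE 0.25, adjusted p = 0.458). In TKO tumors it stood at 263, 133, 128 and 277 CPM, on either side of the control range. Ugp2, which makes UDP-glucose, had a log2 fold change of -0.47 (SE 0.20, adjusted p = 0.270) in TKO and -0.08 in DKO tumors, and the phosphorylase Pygl one of -0.13 in TKO and -0.15 in DKO tumors. Khk, the entry to fructose breakdown, averaged 292 ± 73.7, 239 ± 113 and 230 ± 74.4 CPM, with log2 fold changes of -0.29 and -0.34.

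The pentose phosphate pathway was likewise without a call among its 4 genes. G6pdx, glucose 6-phosphate dehydrogenase and the first step towards NADPH, stood at 13.0, 5.16, 6.78 and 10.6 CPM in control livers, 20.9, 10.6, 15.97 and 10.3 in DKO tumors and 9.17, 11.6, 10.4 and 12.2 in TKO tumors. Its log2 fold change was 0.69 (SE 0.29, adjusted p = 0.175) in DKO and 0.28 (SE 0.30, adjusted p = 0.693) in TKO tumors, and both tumor groups overlapped the control livers. Pgd, the next NADPH-forming enzyme, had log2 fold changes of 0.35 and 0.17. Tkt, transketolase, was at 105 to 126.1 CPM in DKO and at 126.2 to 151 in TKO tumors, with control livers on both sides at 102 to 208. The tumor groups thus barely failed to overlap, and other scalings were not checked for this gene. The log2 fold change of TKO against DKO was 0.27 (SE 0.19, adjusted p = 0.695). Taldo1, transaldolase, had log2 fold changes of -0.19 and -0.14.

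Sorted by tissue form instead of role, the 10 forms used by liver (Slc2a2, Pfkl, Pklr, Pfkfb1, Gys2, Pygl, G6pc, Fbp1, Pck1 and Khk) had a median log2 fold change of -0.40 in DKO and -0.24 in TKO tumors, with 3 of 10 above 0 in each. The 12 forms of other tissues (Slc2a1, Hk1, Hk2, Hk3, Pfkm, Pfkp, Aldoa, Aldoc, Pkm, Ldhb, Pfkfb3 and Pfkfb4) had a median of 0.41 and 0.23, with 9 and 8 of 12 above 0. None of the 22 was called, and over all genes 51.6% in DKO and 52.5% in TKO tumors lay above 0. The summed level of the 10 liver forms was 3448 to 4760 CPM in control, 1253 to 3270 in DKO and 1602 to 3391 in TKO libraries, and that of the 12 other forms 188 to 210, 216 to 339 and 213 to 266 CPM. These sums are weighted towards a few abundant genes and do not describe each set as a whole. In control 1, Pck1, Fbp1 and Slc2a2 gave 1475, 592 and 533 of 3448 CPM, and Aldoa gave 90.3 of 210 CPM. In whole-tissue RNA, fewer cells of a type and less RNA per cell cannot be told apart.

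**Figure D4:**
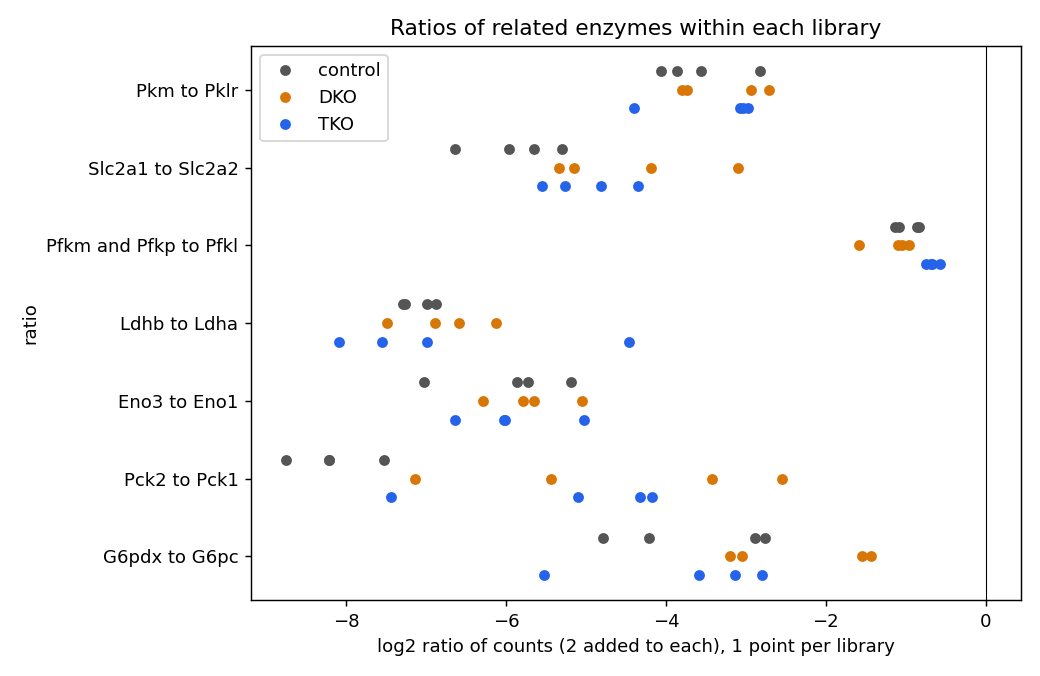
Log2 ratio of the counts of paired enzyme forms, with 2 counts added to each side, in every library of the 3 groups. Pck2 to Pck1 lies higher in all 8 tumors than in all 4 control livers, only just so in TKO 3, and the phosphofructokinase ratio lies highest in TKO tumors.

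Several members varied widely among tumors of the same genotype. Glul, the central-vein enzyme that beta-catenin is known to induce, stood at 463 to 781 CPM in control livers and at 213 to 574 in 5 tumors, but at 3138 in DKO 2, 7472 in DKO 4 and 10331 in TKO 4. The same 3 tumors held the 3 lowest levels of Slc2a2, the 3 lowest of Pck1 and the 3 lowest of Fbp1. The 10 pericentral markers, Glul included, summed to 10676 to 16884 CPM in control livers, to 13733, 32028 and 42736 in DKO 2, DKO 4 and TKO 4, and to 1638 to 10430 in the other tumors. The 10 periportal markers, of which Pck1 is a member, summed to 5734 to 7718 CPM in control livers, to 2468, 547 and 878 in those 3 tumors, and to 4567 to 6477 in the other 5. No marker of either list was at 0 in every library. DKO 4 and TKO 4 were among the 3 lowest of the 12 libraries in 5 and 6 of the 10 liver forms. DKO 2 was among them in 3 forms, as were TKO 2 and TKO 3, whose Glul was not high. In DKO tumors the log2 fold change of Pck1 was -1.43 with and -0.59 without the 3 libraries of high Glul. That of Fbp1 was -0.97 with and -0.61 without them. In TKO tumors the values were -1.65 and -1.39 for Pck1 and -0.70 and -0.45 for Fbp1. Pck2 moved little, from 1.43 to 1.35 in DKO and from 1.26 to 1.30 in TKO tumors, but with 2 DKO and 3 TKO tumors left it was no longer called (adjusted p = 0.191 in DKO, 0.0995 in both genotypes). DKO 2, DKO 4 and TKO 4 held the lowest Pck1 and Fbp1, so leaving them out had to make both drops smaller. Leaving the 3 libraries out was chosen after the data were seen. The part of the pericentral and periportal markers in the levels of the members was not tested.

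**Figure D5:**
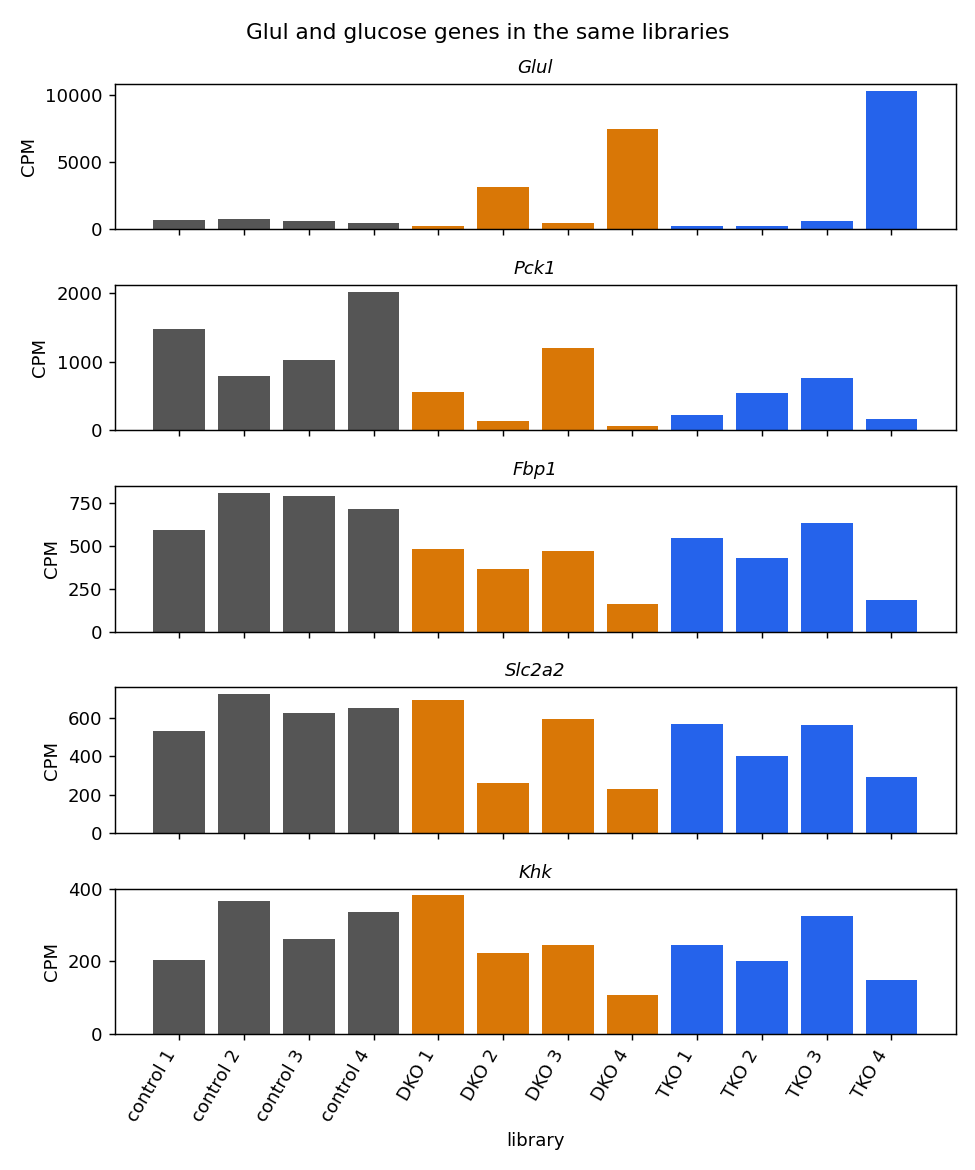
CPM of Glul and of 4 members (bars) in each of the 12 libraries, in grey for control, orange for DKO and blue for TKO. The 3 tumors with the highest Glul (DKO 2, DKO 4 and TKO 4) hold the lowest Pck1, Fbp1 and Slc2a2, and Khk is lowest in DKO 4 and TKO 4.

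Of 56 other genes of the same pathways, 52 were tested, and 3 were called in DKO tumors (2 higher, 1 lower), 0 in TKO tumors and 4 in both genotypes (2 higher, 2 lower). These were 5.77%, 0% and 7.69% of the 52, against 2.42%, 0.0864% and 2.48% of all genes tested. DESeq2 called 5 higher and 6 lower in DKO, 3 higher and 2 lower in TKO and 7 higher and 6 lower in both genotypes, where it called 9.95%, 3.32% and 9.49% of all genes. Pygb, the brain form of glycogen phosphorylase, stood at 13.9, 6.88, 12.4 and 9.44 CPM in control livers, 80.7, 117, 67.3 and 66.3 in DKO tumors and 151, 142, 14.3 and 17.1 in TKO tumors. It rose by a log2 fold change of 2.95 (SE 0.69, adjusted p = 0.0488) in DKO tumors, and the TKO tumors fell into 2 with high and 2 with low levels, all above the control livers (2.92, SE 0.69, adjusted p = 0.119). Slc16a1, the lactate transporter MCT1, stood at 51.0 to 82.4 CPM in control livers and rose to 94.9 to 214 in DKO tumors (log2 fold change 1.17, SE 0.24, adjusted p = 0.0425), with 111 to 133 in TKO tumors (0.80, SE 0.24, adjusted p = 0.152). Slc2a5, the fructose transporter GLUT5, stood at 11.7 to 21.9 CPM in control livers and fell to 2.61 to 7.39 in DKO tumors (-1.86, SE 0.35, adjusted p = 0.0376), with 4.25 to 8.26 in TKO tumors (-1.20, SE 0.34, adjusted p = 0.146). Mpc1, a subunit of the mitochondrial pyruvate carrier, was called only with both genotypes together (-0.62, SE 0.14, adjusted p = 0.0463). Of 20 regulators of the pathway, among them Pfkfb1, the glucagon and insulin receptors, Srebf1, Mlxipl, Foxo1 and Hif1a, 0 were called by edgeR in any comparison, with medians of -0.04 in DKO and -0.06 in TKO tumors. At an unadjusted p under 0.05 they numbered 4 in DKO, 0 in TKO, 4 in both genotypes and 2 between the tumor genotypes. These were 20%, 0%, 20% and 10% of the 20, against 24%, 16.3%, 23% and 9% of all genes tested. DESeq2 called 2 of the 20 in DKO tumors, near its share of 9.95% over all genes, and 0 in the other comparisons. The 2 were the glucagon receptor Gcgr (-0.57 by DESeq2, adjusted p = 0.0273) and the transcription factor Creb3l3 (-0.98, adjusted p = 0.0132). The fit on control and DKO libraries alone called Pfkfb1, as given above.

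The genotypes of TKO and DKO tumors differ by the deletion of Rb1. The paper also reports shorter lives and a shorter tumor latency for TKO than for DKO mice. The labels do not give ages in figures, so age and Rb1 deletion cannot be told apart here. In TKO against DKO tumors 16 of the 40 members had a log2 fold change above 0 (51.2% of all genes tested did). The median was -0.08, with 0.01 for all genes tested. The highest were G6pc with 1.27 (SE 0.65, adjusted p = 0.585), Hk3 with 0.64 (SE 0.56, adjusted p = 0.749), Ldhb with 0.55 (SE 0.62, adjusted p = 0.809) and Pfkm. G6pc and Hk3 rested on TKO 3, without which their log2 fold changes were 0.30 and 0.0064, and Ldhb on TKO 4, without which it had -0.76. The lowest were Aldoc, Pfkfb3 with -0.54 (SE 0.53, adjusted p = 0.777), Slc2a1 with -0.45 (SE 0.25, adjusted p = 0.603) and Hk1 with -0.44 (SE 0.29, adjusted p = 0.665). Without TKO 4 the value of Pfkfb3 was -1.48 (adjusted p = 0.253). Pck2 and Pck1 differed by -0.17 (SE 0.31) and -0.22 (SE 0.76). An adjusted p over the threshold does not show that the genotypes were alike.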

How the data were processed

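Livers and tumors from 12 mice (4 control, 4 DKO, 4 TKO) gave poly(A) RNA for SOLiD libraries with 40-base reads. The deposited values are raw counts per Entrez gene, not normalized: the authors mapped reads to mm9 with BWA and counted them with featureCounts. Versions, the strand setting and the handling of reads with several positions were not given in the sources used here. Groups came from the labels. The p-values set each difference between groups against the spread between these samples.

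Symbols were taken for 24191 of 26301 Entrez genes from RefSeq tables of GRCm38.p6, and coordinates and exon lengths from GENCODE vM1 (mm9). Differences between groups were tested in R 4.3.3 with edgeR 4.0.16 (TMM, filterByExpr, 1 model of all 12 libraries, quasi-likelihood test, Benjamini-Hochberg adjustment at 0.05). DESeq2 1.42.0, the tool of the study's methods, and limma 3.58.1 (voom) were alternatives, with other scalings, filters, thresholds, covariates and samples. Scripts were tested on simulated counts. Ratios and marker sums got no test. Levels rest on totals of 9165812 to 16424973 counts, which limit low genes: Hk2 had 6 to 37 and Pck2 33 to 221 counts. No pair of the 12 libraries agreed within sampling noise.

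The members and gene lists were chosen with earlier results of these data known. Genes named with full statistics were those called, the 4 highest and 4 lowest members of each comparison, and members without overlap in both genotypes. Of other pathway genes and regulators, those called were named, and 2 others that the rule gave are not reported here. Other values describe the roles. Gpi1, Pgk1, Gys2, Gbe1, Ugp2 and other single genes pointed out there, and the regulators called by DESeq2, were chosen with their values in view.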

Additional observations from a re-analysis of the deposited data

Results flagged for a closer look

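In 9 of 120 sets of 4 libraries, or 7.5%, the highest or lowest library of a group stood far from the other 3 by Dixon's test, which chance flags in about 1 of 20 sets. TKO 4 was the highest of its group for Ldhb, with 18.2 CPM against 3.48 in the next library, and for Pfkfb3, with 47.3 against 13.0 CPM. TKO 3 was the highest for G6pc, with 486 CPM against 111 in the next. DKO 4 was the highest for Pgd, with 61.0 against 35.0 CPM, and for Tpi1, with 129.7 against 91.9 CPM. DKO 2 was the lowest for Pfkm, with 10.5 against 12.5 CPM, and for Eno3, with 1.42 against 2.76 CPM. TKO 1 was the lowest for Slc2a1, with 12.1 against 14.1 CPM, and control 1 the lowest for Pgk1, with 79.95 against 89.9 CPM.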

How the results depend on the processing

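In DKO tumors the number of members called, 1 by edgeR with TMM, became 2 at an adjusted p under 0.1, 2 by DESeq2, 2 by limma-voom with quality weights and 2 with only the libraries of the 2 groups, and 0 with total counts as scaling, with the covariate from sex-linked genes and with the 3 libraries of high Glul left out. For both genotypes against control, 1 became 3 at an adjusted p under 0.1, 3 by DESeq2, 3 by limma-voom, and 0 with total counts, the covariate or the 3 libraries left out. In TKO tumors 0 became 2 by DESeq2, and between the tumor genotypes it was 0 under every alternative run. Leaving out 1 library at a time gave 0 to 1 members in DKO, 0 to 1 in TKO, 0 to 2 for both genotypes and 0 to 0 between the tumor genotypes. The cause of these moves was not tested. With DESeq2's size factors, no filter, or at least 10 counts in every library, the number of members called was as with TMM in all 4 comparisons.

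Over all genes, the 336 calls in DKO tumors became 1491 by DESeq2, 1804 by limma-voom, 1460 at an adjusted p under 0.1, 759 with only the 2 groups, 509 with the replicate block, 59 with total counts, 7 with the covariate, 1 without the 3 libraries and 0 to 651 on leaving out 1 library. The 12 in TKO tumors became 498, 97, 80, 9, 1, 9, 6, 0 and 0 to 231 in the same order. The 344 for both genotypes became 1422, 1813, 1317, 441 with the block, 61, 6, 0 and 0 to 1019. Between the tumor genotypes DESeq2 called 56.

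Of 740 values of named members under the alternatives, 732 kept their sign, 9 passed the threshold newly and 23 lost it, all of the last for Pck2. The 8 of other sign were for Ldhb and G6pc, none of them called. The log2 fold change of Pck2 stayed between 1.21 and 1.56 in DKO, 0.96 and 1.51 in TKO and 1.20 and 1.47 in both genotypes. Total-count scaling moved the median of all genes by 0.17 in TKO, 0.12 in both genotypes and 0.11 between the tumor genotypes. The isozyme ratios moved by less than the pooled spread between replicates with 0.5 counts added. Leaving out 1 of 4 libraries cannot move a group mean by that much, so for it this measure decides nothing. The log2 ratio of Ldhb to Ldha stood at -4.46 in TKO 4 and at -7.56, -6.99 and -8.09 in TKO 1, 2 and 3. Control livers ranged from -7.29 to -6.87, so the higher TKO mean of this ratio rested on TKO 4. The replicate numbers repeat between groups, and the labels state no pairing by them. Over 12 same-numbered pairs the correlation of deviations from the group means was -0.17 to 0.37, with 5 pairs over 0.1. Pairs of different number ran from -0.35 to 0.32. Whether libraries were paired cannot be told from these values. The fit with the replicate block called 1 member in DKO, 0 in TKO, 1 in both genotypes and 0 between the tumor genotypes. The covariate held little information, with 1 to 6 Xist counts against 1093 to 2293 counts of Y-linked genes in every library.

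Libraries of 9165812 to 16424973 counts, 4 to a group, limit the precision of low genes: Hk2, Pfkfb4, Eno3 and Ldhb had as few as 6, 7, 16 and 22 counts in a library.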
